A study of Oryza sativa with 9 samples.

Results

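In rice leaves, 90 genes stood on opposite sides of the wild type in plants that overexpress OsCOMT and in an OsCOMT mutant. Of these, 57 were higher in the overexpression leaves and lower in the mutant leaves, and 33 were lower in the overexpression leaves and higher in the mutant leaves. They were taken from the 19762 genes that the choice could take, out of 37858 in the table, and make up 0.455% of them. A gene was taken when its mean over the 9 libraries was at least 1 FPKM (a read level per gene length and per library total), when all 3 libraries of each genotype lay on the required side of all 3 wild-type libraries, and when the ratios of (mean FPKM + 1) between overexpression and wild type and between wild type and mutant were both at least 1.5, or both at most the inverse of 1.5. OsCOMT itself, 2 other genes and a stretch of chromosome 11 were left out beforehand, among which 4 genes would have met the same criteria. The members were thus chosen by the values of both comparisons with the wild type, and those values are given as a description and without a test.

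Leaves came from 3 genotypes, with 3 libraries each. The age label gives 85 days after sowing for every sample, but WT and OE titles hold another, unexplained number, which is missing from those of the mutant. WT is the wild type, OE overexpresses OsCOMT, and the mutant carries a mutation of OsCOMT. The enzyme, a methyltransferase for caffeic acid, serves lignin synthesis and also makes melatonin from its direct precursor. The labels do not give the type of the mutation, the promoter that drives the overexpression, the number of independent lines, whether libraries came from separate plants, or the hour of sampling. OsCOMT (Os08g0157500) was at 228 to 259 FPKM across WT libraries, 1945 to 3162 in the OE libraries and 226 to 458 in the mutant libraries, so its transcript level does not check the mutant label. Library totals, recovered from the FPKM, were 10674819 to 11809530 reads. On the second principal component OE replicate 1 lay at -2.51, away from the other OE libraries at 31.75 and 29.04, with the WT libraries between -22.67 and -17.38. The summed level of 7 leaf markers, all above 0 in every library, was 4104 to 5358 FPKM across WT libraries, 3966 to 6390 in the OE libraries and 6819 to 8501 in the mutant libraries. Of 9 markers of floral organs, 4 to 6 were above 0 in a library. The sum of the 9 was 14.98 to 17.5 FPKM across WT libraries, 9.92 to 16.0 in the OE libraries and 40.7 to 44.7 in the mutant libraries. Only MADS1 and MADS16 among them averaged 1 FPKM or more over the 9 libraries. Both marker sums were higher in every mutant library, where 57 members were lower and 33 higher. The part of these sums in the results was not tested. In leaf tissue as a whole, fewer cells of a type and less RNA per cell cannot be told apart.

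The table gives identifiers without product names, and 11 of the 90 members could be named. Several of the named genes handle copper. Leaf cells need copper for plastocyanin, superoxide dismutases and other oxidases, and bring it in through membrane transporters of the Ctr family (COPT proteins). P-type ATPases (HMA proteins) pump it out of the cytosol, and YSL transporters move it bound to nicotianamine along the vasculature. Chloroplast lipoxygenases oxidise linolenic acid, the first step toward the hormone jasmonate. Type 2C protein phosphatases hold back abscisic acid signalling, and starch synthases extend the glucan chains of starch. The names come from general knowledge of rice genes checked by position against RefSeq. All but SSI were looked up after the values of the members had been seen.

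The size of the shift was uneven between the genotypes. Among the 57 members higher in OE, the median fold on the (mean FPKM + 1) scale was 1.78 between OE and WT (1.53 to 8.09) and 1.99 between WT and mutant (1.504 to 18.4), and 34 had the larger fold on the mutant side. Among the 33 members lower in OE, the median fold was 1.67 between WT and OE (1.51 to 4.01) and 2.69 between mutant and WT (1.59 to 8.52), with the larger fold on the mutant side in 31. Both folds reached 2 in 10 members of the former kind and in 2 of the latter. The same median over all genes tested was 0.999 for OE over WT and 0.992 for mutant over WT. This scale understates the change of low genes.

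**Figure D1:**
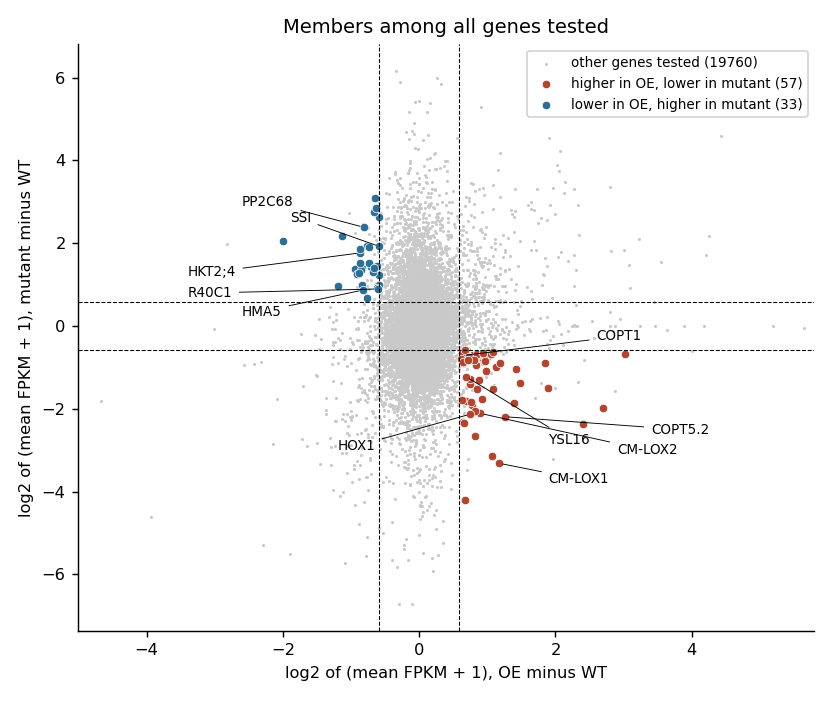
Each point is 1 gene, with the difference between OE and WT on the x axis and between mutant and WT on the y axis, both as log2 of (mean FPKM + 1). Dashed lines mark a ratio of 1.5 in either direction, and 3 genes lie beyond the x axis. The 57 members in red fill the lower right and the 33 in blue the upper left, which the choice of members fixes, while other genes there had libraries that overlapped or were left out.

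Library by library, the median member higher in OE was at 13.3 to 14.1 FPKM across WT libraries, 22.8 to 29.9 in the OE libraries and 2.44 to 4.05 in the mutant libraries. For members lower in OE the library medians were 5.99 to 9.04 FPKM across WT libraries, 3.45 to 3.95 in the OE libraries and 22.2 to 23.3 in the mutant libraries. Replicates of the members were also more scattered than those of the average gene. The median SD of log2(FPKM + 1) among OE libraries was 0.33 for members higher in OE and 0.20 for those lower in OE, against 0.16 over all genes tested. Among WT libraries it was 0.24 and 0.28, against 0.13. In 36 of the 57 members higher in OE, the OE library nearest WT was OE replicate 1, which was the lowest OE library for 39.0% of all genes tested. It was likewise the highest OE library for 19 of the 33 members lower in OE, against 33.3% of all genes tested.

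**Figure D2:**
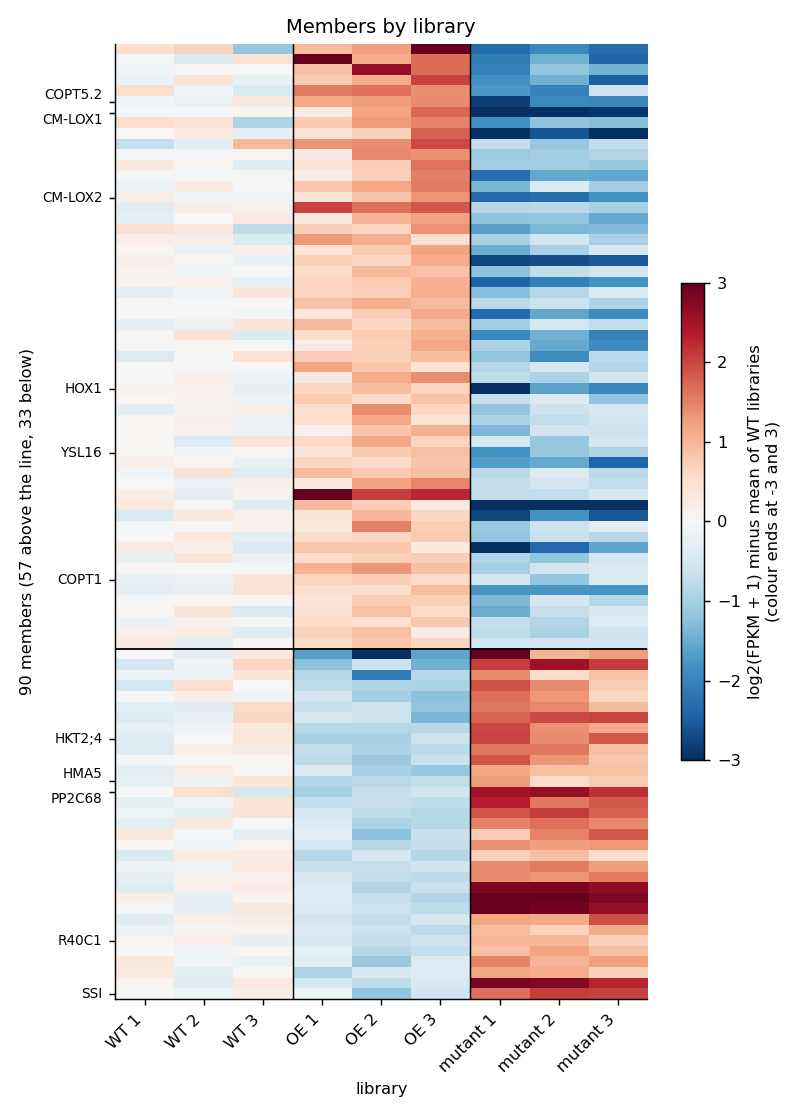
Rows are the 90 members and columns the 9 libraries, and colour gives log2(FPKM + 1) minus the mean of the WT libraries, cut at -3 and 3. The 57 members above the line are red in OE and blue in the mutant, the 33 below the reverse, and many rows are palest in OE replicate 1.

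With limma on log2(FPKM + 1) and an adjusted p under 0.05 over all 19850 genes tested, 4 of the 90 members were called in OE against WT, where 0.232% of all genes were called, and 86 in the mutant against WT, where 42.0% were called. Both contrasts served to choose the members, so nothing is read from these shares. All 4 calls in OE were members higher in OE, of 57, where 0.171% of all genes were called as higher and 0.0605% as lower. In the mutant against WT, 53 of these 57 were called as lower, as were 22.4% of all genes, and 33 of the 33 others as higher, as were 19.6%. The mutant against OE, whose direction the choice also fixes, called 57 as lower and 33 as higher, with 43.4% of all genes called, 22.9% as lower and 20.5% as higher. Of the 33 members lower in OE, 0 were called in OE with limma or with voom on the recovered reads, and 33 had an unadjusted p under 0.05, as had 10.1% of all genes. Both comparisons with WT called Os07g0130100, Os03g0809100 and Os12g0484600, which are named because of these calls, where 0.116% of all genes were called in both. Os07g0130100 was at 1.70, 2.86 and 2.68 FPKM across WT libraries, 12.8, 9.54 and 11.3 in the OE libraries and 0.90, 0.91 and 0.72 in the mutant libraries. Its 3 genotypes were well apart. Os03g0809100 was at 14.9 to 15.4 FPKM across WT libraries, 28.3 to 33.5 in the OE libraries and 7.51 to 9.24 in the mutant libraries, so its genotypes too were far apart for their spread. Os12g0484600 was at 36.4 to 38.1 FPKM across WT libraries, 69.8 to 94.2 in the OE libraries and 18.2 to 27.5 in the mutant libraries. Every member has groups that do not overlap, because they were chosen so. Of all genes tested, 7.6% lay above and 8.81% below WT in every OE library, 26.0% above and 29.4% below WT in every mutant library, and 25.4% above and 27.1% below OE in every mutant library.

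Whichever single library was left out, 39 of the 90 members still met the order and the ratios, 25 of those higher in OE and 14 of those lower. The order could not fail here, because all 9 libraries already met it. The count thus describes only whether the ratios and the mean level held. COPT5.2, CM-LOX1, CM-LOX2, HOX1, HMA5 and HKT2;4 were among these 39, whereas COPT1, YSL16, PP2C68, R40C1 and SSI were not. Just inside the limit, the smaller fold was 1.504 for Os05g0142600 and 1.53 for Os05g0390932 among members higher in OE, and 1.51 for both SSI and Os05g0170950 among members lower in OE. Just outside the limit were Os03g0345700 and Os01g0734800 at 1.48 in the first direction, and Os07g0634400 at 1.499 and Os02g0628900 at 1.494 in the second. The order of the libraries alone, without the ratios, was met by 361 genes in the first direction (1.83%) and 392 in the second (1.98%).

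Copper transporters stood on both sides. COPT5.2 (Os08g0455900, chromosome 8), a Ctr-type copper transporter, was at 5.76, 5.30 and 7.54 FPKM across WT libraries, 14.7, 16.0 and 17.99 in the OE libraries and 0, 0.88 and 0.85 in the mutant libraries. The mutant values rest on 10 reads over 3 libraries, against 113 in WT and 293 in OE. The 3 genotypes did not overlap, which the choice required. On the (mean FPKM + 1) scale OE was 2.39-fold above WT and WT 4.57-fold above the mutant.

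COPT1 (Os01g0770700, chromosome 1), of the same family, was expressed at a higher level. Its FPKM were 44.8, 46.0 and 68.8 in WT, 83.6, 87.6 and 78.3 in OE and 35.5, 22.7 and 37.9 in the mutant. WT replicate 3 lay nearer to OE than to the other WT libraries. The folds were 1.55 and 1.64. Without WT replicate 3 the second fell to 1.40, and without WT replicate 1 the first fell to 1.44. They were also under 1.5 without WT replicate 2 (1.46 for the first) or mutant replicate 2 (1.44 for the second).

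YSL16 (Os04g0542800, chromosome 4), which in rice carries copper-nicotianamine in the phloem, was at 71.5, 64.4 and 71.5 FPKM in WT. In OE it was at 87.9, 119 and 130 FPKM, and in the mutant at 19.3, 31.0 and 36.7 FPKM. Every OE library was above, and every mutant library well below, a narrow WT range. The folds were 1.62 and 2.34, and without OE replicate 3 the first was 1.49.

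HMA5 (Os04g0556000, chromosome 4), a copper-pumping ATPase known in rice roots for loading copper into the xylem, went the other way. It was at 1.751, 1.89 and 3.13 FPKM across WT libraries, 0.73, 0.83 and 0.95 in the OE libraries and 6.61, 3.79 and 4.44 in the mutant libraries. The level was low, with 251 reads over the WT libraries, 92 over OE and 524 over the mutant. WT was 1.77-fold above OE, and the mutant 1.83-fold above WT.

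**Figure D3:**
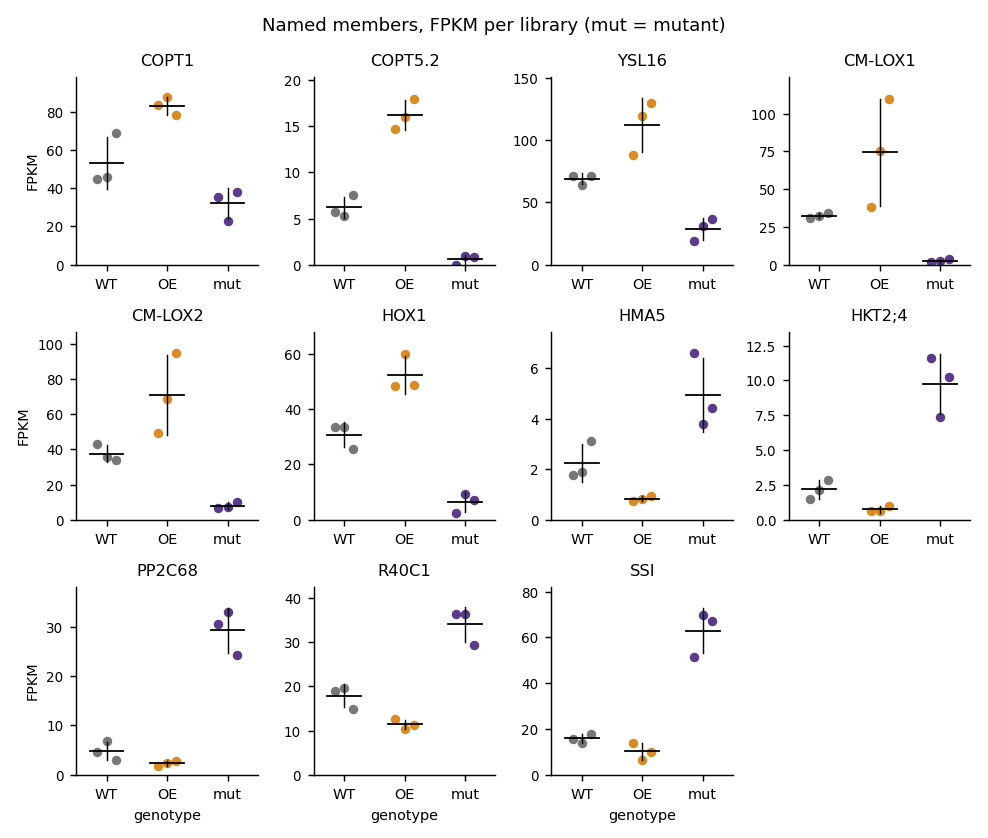
FPKM of the 11 named members in each library, with 1 point per library, a horizontal bar at the mean of 3 libraries and a vertical bar for the SD. COPT1, COPT5.2, YSL16, CM-LOX1, CM-LOX2 and HOX1 are highest in OE and lowest in the mutant, and HMA5, HKT2;4, PP2C68, R40C1 and SSI the reverse. The OE points of CM-LOX1 spread from 38.4 to 110 FPKM.

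The copper list was put together after the members' values were seen, and holds 15 genes, of which 4 are members, 9 others were tested and 2 (COPT2 and COPT3) lay below 1 FPKM. In the mutant against WT, limma found 3 of the 9 raised, 0 lowered and 6 short of the threshold, where 42.0% of all genes passed, and the median log2 fold change was 0.35 against -0.01 over all genes. The 3 were SODCC1, a cytosolic copper/zinc superoxide dismutase, HMA4, a copper ATPase of the vacuole, and SODCP, the chloroplast superoxide dismutase. In OE against WT, 0 of the 9 passed with limma or voom, where 0.232% of all genes passed with limma, and 1 had an unadjusted p under 0.05, close to the 10.1% of all genes, with a median log2 fold change of 0.06 against 0.00 over all genes.

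SODCC1 (Os03g0351500) was at 241, 238 and 190 FPKM across WT libraries, 151, 257 and 151 in the OE libraries and 436, 453 and 380 in the mutant libraries. Its OE libraries straddled the WT range while all 3 mutant libraries were above it. The limma log2 change of the mutant was 0.93 ± 0.20 (SE), with an adjusted p of 0.0052. HMA4 (Os02g0196600) went from 5.401 ± 0.40 FPKM across WT libraries to 10.2 ± 2.07 in the mutant libraries (SD, n = 3), with a limma log2 change of 0.79 ± 0.15 (SE) and an adjusted p of 0.0023, with OE at 4.98 ± 0.45 FPKM. For SODCP the limma log2 change was 0.59 ± 0.17 (SE), with an adjusted p of 0.020 that became 0.078 when WT replicate 2 was dropped and 0.069 when mutant replicate 3 was dropped. COPT5.1, the close relative of COPT5.2, was at 33.6 ± 5.02 FPKM across WT libraries, 40.2 ± 3.20 in the OE libraries and 41.8 ± 4.64 in the mutant libraries (SD, n = 3), and did not pass in the mutant (limma adjusted p = 0.070). Without WT replicate 2 its adjusted p was 0.033, with a log2 fold change of 0.42. SPL9, a transcription factor that governs copper-responsive genes in rice, was at 52.4 ± 6.15 FPKM across WT libraries, 74.6 ± 11.1 in the OE libraries and 67.1 ± 8.84 in the mutant libraries, and did not pass in the mutant either (limma adjusted p = 0.069).

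**Figure D4:**
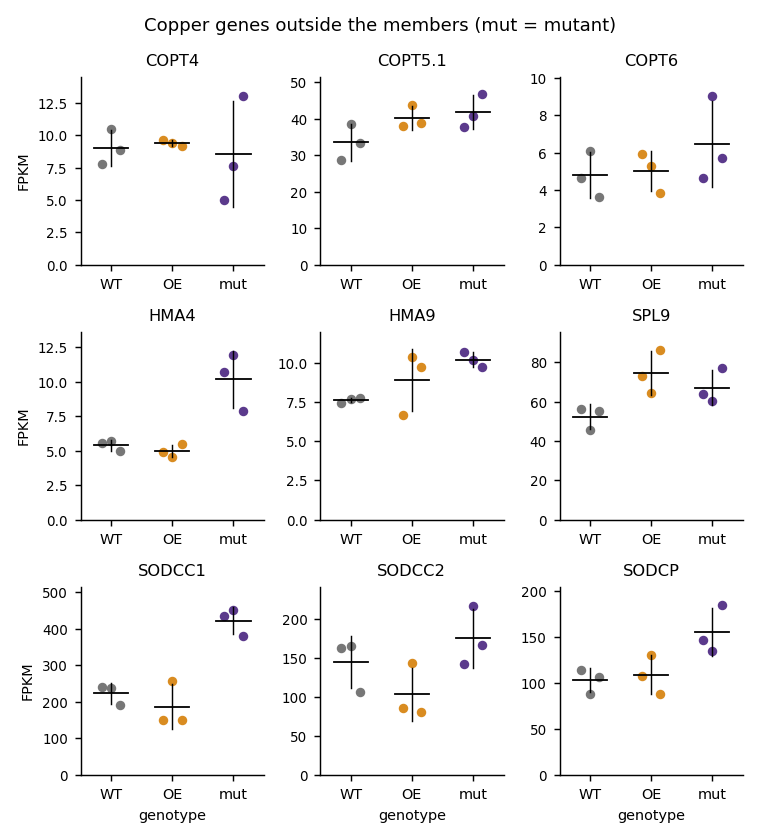
FPKM of the 9 tested copper genes that are not members, with 1 point per library, a horizontal bar at the mean of 3 libraries and a vertical bar for the SD. SODCC1 and HMA4 are higher in the mutant with OE near WT, and COPT4, COPT6 and SODCC2 overlap between the genotypes.

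Of the named members, CM-LOX1 had the largest fold between WT and mutant. CM-LOX1 (Os08g0508800) and CM-LOX2 (Os08g0509100) are next to each other in the table on chromosome 8. CM-LOX1 was at 31.0, 32.2 and 34.1 FPKM across WT libraries, 38.4, 75.1 and 110 in the OE libraries and 1.46, 2.23 and 3.39 in the mutant libraries. CM-LOX2 was at 43.3, 35.6 and 34.1 FPKM across WT libraries, 49.6, 68.8 and 94.8 in the OE libraries and 6.69, 7.04 and 10.1 in the mutant libraries. In both genes OE replicate 3 was the highest library and OE replicate 1 was only a little above WT. The OE folds of CM-LOX1 and CM-LOX2 were 2.25 and 1.86, and without OE replicate 3 they were 1.73 and 1.56. WT was 9.95-fold above the mutant for CM-LOX1 and 4.32-fold for CM-LOX2. Since the 2 genes are related copies side by side, reads may have been split between them, and they may not be 2 separate observations.

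Of 12 tested genes of the jasmonate list, none of them a member, 2 rose and 0 fell in the mutant against WT with limma, where 42.0% of all genes passed, and the median log2 fold change was 0.30. COI1A, which encodes a jasmonate receptor, went from 48.4 ± 2.09 FPKM across WT libraries to 69.0 ± 2.59 in the mutant libraries (SD, n = 3), with a limma log2 change of 0.50 ± 0.08 (SE) and an adjusted p of 0.00076. TIFY11C, a JAZ repressor that jasmonate induces, went from 1.953 ± 0.94 FPKM in WT to 9.16 ± 4.58 in the mutant (SD, n = 3; limma adjusted p = 0.038). In OE it also averaged above WT, at 11.6 ± 8.75 FPKM, without passing (limma adjusted p = 0.32). The mutant call was lost when any one of WT replicates 1 and 3, OE replicate 2 or mutant replicates 1 and 2 was dropped (adjusted p 0.052 to 0.12). It was also lost with voom (0.094), with no filter (0.061) or with a pseudocount of 5 (0.067). AOC, the allene oxide cyclase further along the pathway, was at 68.0 ± 8.16 FPKM across WT libraries and 56.2 ± 6.83 across mutant libraries (SD, n = 3), and did not pass (limma adjusted p = 0.11).

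In OE against WT, 0 of these 12 passed with limma or voom, where 0.232% of all genes passed with limma, and 3 had an unadjusted p under 0.05, as had 10.1% of all genes. The JAZ genes tested were likewise highest in OE replicate 3 and lowest in OE replicate 1. TIFY10B, singled out after its values were seen, was at 82.8, 96.6 and 69.4 FPKM in WT and at 84.6, 139 and 305 FPKM in OE. Its mutant libraries were at 102, 101 and 76.7 FPKM, within or close to the WT range, unlike the lipoxygenases. Other JAZ genes went both ways in the mutant. TIFY10A was lower, as the lipoxygenases were, at 38.4 to 45.6 FPKM in WT and 21.2 to 26.9 in the mutant, without passing (limma adjusted p = 0.073). TIFY11B, TIFY11C and TIFY11D were higher, with limma log2 changes of 1.37, 1.71 and 1.67, of which TIFY11C alone passed.

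HOX1 (Os10g0561800, chromosome 10), a homeodomain-leucine zipper transcription factor tied in rice to the fate of procambial cells of the vasculature, was at 33.5, 33.4 and 25.5 FPKM in WT. It was at 48.4, 60.2 and 48.6 FPKM in OE and at 2.32, 9.32 and 7.15 FPKM in the mutant. The genotypes did not overlap, which holds for every member by choice. OE was 1.68-fold above WT and WT 4.38-fold above the mutant. Another member, Os10g0562900, lies 9 rows further on in the table. It was at 7.32, 11.2 and 7.22 FPKM across WT libraries, 15.3, 19.4 and 37.4 in the OE libraries and 1.69, 2.45 and 0.71 in the mutant libraries. This pair and the lipoxygenases were the 2 pairs of members within 10 rows of each other, and the members were otherwise spread over all 12 chromosomes in both directions.

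Among members higher in the mutant, PP2C68 (Os09g0325700, chromosome 9), a type 2C phosphatase that restrains abscisic acid signalling, lay far above WT in the mutant. It was at 4.59, 6.79 and 2.97 FPKM across WT libraries, 1.81, 2.37 and 2.68 in the OE libraries and 30.5, 33.0 and 24.3 in the mutant libraries. OE replicate 3 was just below WT replicate 3, and both groups were clear of the mutant. The mutant was 5.23-fold above WT and WT 1.76-fold above OE, and the latter was 1.46 without WT replicate 2.

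R40C1 (Os03g0327600, chromosome 3), a ricin-B-like lectin known in rice as responsive to abscisic acid and osmotic stress, was at 19.0, 19.7 and 14.9 FPKM across WT libraries, 12.5, 10.5 and 11.2 in the OE libraries and 36.4, 36.5 and 29.5 in the mutant libraries. All libraries were ordered by genotype, as the choice demands, with folds of 1.52 and 1.86. The first fell to 1.45 without WT replicate 2, and it was also under 1.5 without WT replicate 1 or OE replicate 2.

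The list of abscisic acid and dehydration genes held no member. It held 19 genes, of which 9 lay below 1 FPKM. Of its 10 tested genes, 6 rose and 3 fell in the mutant against WT with limma, where 42.0% of all genes passed. The median log2 fold change was 0.93. Among those that rose, LEA3 and Os11g0454300 (name not checked) reached a mean of 1 FPKM only through the mutant libraries. LEA3 averaged 0 FPKM in WT, 0.09 in OE and 23.4 in the mutant, and Os11g0454300 averaged 0, 0 and 9.82. The filter thus fixed the direction of their change, and both enter the median. In OE against WT, 0 of the 10 passed with limma or voom, 0 had an unadjusted p under 0.05, where the shares of all genes were 0.232% with limma and 10.1%, and the median was -0.06. BZIP23, a transcription factor of abscisic acid responses, went from 8.43 ± 0.86 FPKM across WT libraries to 41.3 ± 8.81 in the mutant libraries (SD, n = 3), with a limma log2 change of 2.15 ± 0.16 (SE) and an adjusted p of 1.4e-05, with OE at 8.96 ± 1.299 FPKM. P5CS1, an enzyme of proline synthesis, rose by 1.016 on the log2 scale (SE 0.12, limma adjusted p = 0.00013), from 17.8 ± 1.47 to 37.1 ± 4.39 FPKM, with OE at 18.04 ± 2.01 FPKM. ZEP, which makes a precursor of abscisic acid, went from 805 ± 127 FPKM in WT to 582 ± 61.3 in the mutant, with OE at 648 ± 21.4. Its limma log2 change in the mutant was -0.46 ± 0.14 (SE), with an adjusted p of 0.025. That call was lost without WT replicate 3 (0.079), mutant replicate 2 (0.068) or mutant replicate 3 (0.079), and with no filter (0.070). ABA8OX2, which breaks abscisic acid down, went from 6.03 ± 0.15 FPKM in WT to 4.36 ± 0.54 in the mutant, with OE at 6.77 ± 0.40 (SD, n = 3). Its limma adjusted p in the mutant was 0.018, a call lost without WT replicate 1 (0.056), WT replicate 2 (0.054) or mutant replicate 1 (0.059). The other gene of the list that fell, Os02g0704000, has no checked name and went from 99.8 ± 11.0 to 38.8 ± 10.8 FPKM, a limma log2 change of -1.37 ± 0.18 (SE) with an adjusted p of 0.00033. Its OE libraries, at 75.2 ± 10.9 FPKM, all lay below the WT libraries too. The same held for ZEP, and neither gene passed in OE.

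HKT2;4 (Os06g0701600, chromosome 6), a transporter of potassium and other cations, was at 1.51, 2.14 and 2.86 FPKM in WT. In OE it was at 0.60, 0.59 and 1.01 FPKM, and in the mutant at 11.6, 7.40 and 10.3 FPKM. The mutant libraries stood far above the others, with a fold of 3.4 over WT, and WT was 1.83-fold above OE. Reads numbered 116 over the WT libraries, 39 over OE and 498 over the mutant. Its neighbour HKT2;1, of the same family, averaged 0.30 FPKM across WT libraries, 0.19 in the OE libraries and 1.54 in the mutant libraries. The mean of HKT2;1 over the 9 libraries was below the level tested. How reads were divided among related HKT genes, HKT2;3 included, is uncertain. Of the 3 other HKT genes tested, a list also made after the members were seen, 2 rose in the mutant and 1 did not pass with limma, where 19.6% of all genes passed as higher. HKT2;3 went from 1.52 ± 0.43 FPKM across WT libraries to 3.58 ± 0.99 in the mutant libraries (SD, n = 3), with a limma log2 change of 0.85 ± 0.20 (SE) and an adjusted p of 0.0068, with OE at 0.85 ± 0.12 FPKM. HKT1;3 rose by 0.82 on the log2 scale (SE 0.24, limma adjusted p = 0.020) and missed the threshold without WT replicate 3 (0.069) or mutant replicate 1 (0.061). HKT1;1 did not pass (log2 fold change 0.87, limma adjusted p = 0.090), and passed without mutant replicate 3 (log2 fold change 1.21, adjusted p = 0.026).

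SSI (Os06g0160700, chromosome 6), the starch synthase that extends short amylopectin chains, was at 15.6, 14.01 and 17.8 FPKM across WT libraries, 13.98, 6.43 and 10.1 in the OE libraries and 51.5, 69.7 and 67.4 in the mutant libraries. The mutant was 3.80-fold above WT and clear of it. On the OE side the separation was marginal. OE replicate 1 at 13.98 FPKM was barely under WT replicate 2 at 14.01 FPKM, and the fold of WT over OE was 1.51, or 1.29 without OE replicate 2 and 1.42 without WT replicate 3.

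Of the 17 other tested genes of the starch list, 14 rose in the mutant against WT with limma, 1 fell and 2 missed the threshold. Of all genes 42.0% passed, and the median log2 fold change of the 17 was 0.76. Os02g0528200 (name not checked), called as higher, reached a mean of 1 FPKM only through the mutant libraries. It averaged 0.76 FPKM in WT, 0.84 in OE and 1.67 in the mutant. In OE against WT, 0 of the 17 passed with limma or voom, where 0.232% of all genes passed with limma, 2 had an unadjusted p under 0.05, close to the 10.1% of all genes, and the median was -0.03. SBE1, a starch branching enzyme, went from 37.0 ± 2.0 FPKM across WT libraries to 62.5 ± 4.83 in the mutant libraries (SD, n = 3), with a limma log2 change of 0.74 ± 0.09 (SE) and an adjusted p of 0.00017, with OE at 36.5 ± 2.55 FPKM. AGPS2, a small subunit of ADP-glucose pyrophosphorylase, rose by 0.96 on the log2 scale (SE 0.14, limma adjusted p = 0.00050), from 15.1 ± 0.49 to 30.3 ± 0.94 FPKM, with OE at 18.1 ± 4.09 FPKM. ISA1, an isoamylase that trims glucan branches, was at 6.32 ± 0.24 FPKM across WT libraries, 7.33 ± 0.51 in the OE libraries and 6.09 ± 1.82 in the mutant libraries. SSI was the 1 starch gene among the members.

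**Figure D5:**
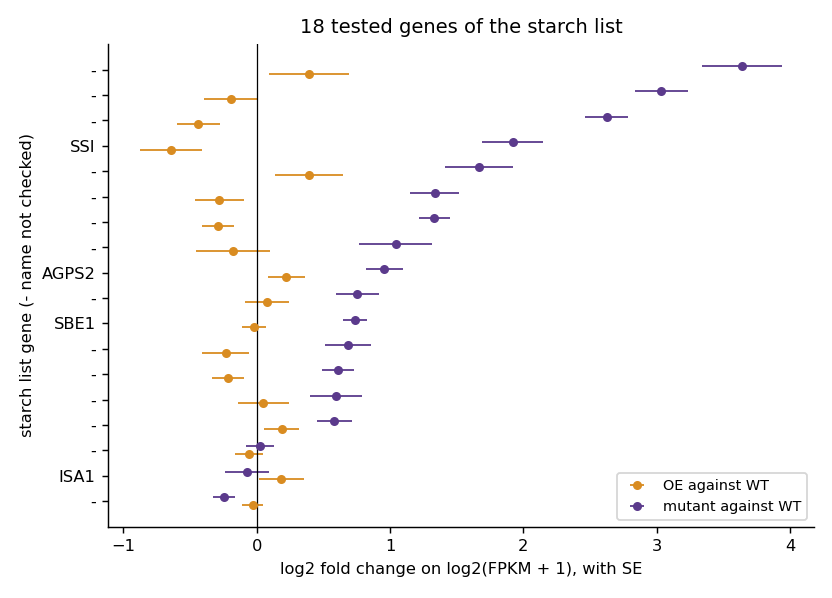
Log2 fold changes on log2(FPKM + 1) of the 18 tested starch genes against WT, with the SE from limma, for OE and for the mutant. Genes whose names did not meet the position check carry a dash. Most genes lie right of 0 in the mutant and near 0 in OE, and SSI is the lowest of them in OE.

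The other 79 members have no checked name. Ranked by the smaller of their folds, the first of them in each direction were Os01g0123900 and Os12g0117700, higher in OE, and Os06g0210000 and Os02g0689900, lower in OE. Os01g0123900 (chromosome 1) was at 6.62, 7.85 and 1.45 FPKM across WT libraries, 9.57, 11.9 and 75.4 in the OE libraries and 0.11, 0.44 and 0.10 in the mutant libraries. Most of its OE signal was in OE replicate 3, without which the OE fold of 5.28 became 1.86. Os12g0117700 (chromosome 12) was at 15.3, 11.5 and 21.4 FPKM across WT libraries, 241, 34.6 and 51.8 in the OE libraries and 2.83, 5.09 and 2.13 in the mutant libraries. Here OE replicate 1 was the high library, and without it the OE fold of 6.46 became 2.59. A single library held more than 50% of the OE sum in 12 of the 90 members, against 4.31% of all genes tested.

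Os06g0210000 (chromosome 6) was at 10.7, 8.51 and 13.1 FPKM across WT libraries, 2.75, 0.15 and 2.92 in the OE libraries and 94.5, 22.4 and 26.6 in the mutant libraries. The mutant fold of 4.15 was 2.17 without mutant replicate 1. Os02g0689900 (chromosome 2) was at 7.57, 10.5 and 18.3 FPKM across WT libraries, 4.24, 7.12 and 3.56 in the OE libraries and 51.3, 71.3 and 52.2 in the mutant libraries, with folds of 2.197 and 4.51. Its mutant libraries were all far above WT.

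The extremes of each side were singled out after their values were seen. Os06g0534900 had the largest fold between WT and mutant among members higher in OE, at 26.2, 21.7 and 16.92 FPKM across WT libraries, 42.5, 36.0 and 26.3 in the OE libraries and 0.28, 0 and 0.41 in the mutant libraries. Only 5 reads stood behind the mutant values, against 489 in WT, and OE replicate 3 was barely above WT replicate 1. Os04g0330301 had the largest OE fold, at 0.88, 0.36 and 0.79 FPKM in WT and 24.8, 5.95 and 6.93 FPKM in OE, with 3 reads in the mutant. Os04g0578400 had the largest mutant fold of the members lower in OE, at 11.4, 8.31 and 10.6 FPKM across WT libraries, 7.38, 5.85 and 5.05 in the OE libraries and 101, 103 and 76.5 in the mutant libraries. Os07g0637300 was the most abundant member in the mutant, at 425, 384 and 322 FPKM against 49.7, 42.2 and 61.5 FPKM in WT and 37.1, 31.9 and 29.2 FPKM in OE. In these last 2 genes the mutant shift was far larger than the OE shift of 1.57-fold and 1.55-fold.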

How the data were processed

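Per the labels' protocols, the rice leaf libraries came from an Illumina TruSeq kit. What the authors deposited is 1 FPKM value per gene and library. Bowtie 0.12.2, Cuffdiff and IRGSP-1.0 appear, per the submitters' processing notes, without their roles, and whether strand was used is not given in the sources used here. Columns were matched to samples by title, and 1 further per-sample column was not used. FPKM resolved into whole reads for 30062 of 30062 genes above 0 (relative tolerance 3e-07). A gene above 0 in only 1 library resolves in any case, so this share does not by itself check the read counts. The fit used limma 3.58.1 (R 4.3.3) and took genes averaging 1 FPKM or more, as log2(FPKM + 1), with a mean-variance trend, all 9 libraries in 1 fit, no covariate, two-sided, with Benjamini-Hochberg adjustment over 19850 genes per contrast. The script was tested on simulated data. Python 3.11.15 served for the rest. Nothing says that libraries came from separate plants, so a p-value here reflects only how these libraries scatter, possibly for technical reasons.

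The members and the gene lists were chosen with earlier results of these data known. Names from general knowledge are printed only where a RefSeq protein-coding gene (assembly ASM3414082v1) of that name or alias lies on the same chromosome within 0.03 of the same relative rank; 221 of 328 listed pairs and 27 of 27 pairs added after the values were seen met this. List counts include genes whose names did not meet it. Named are every member with a checked name, the 2 others per direction with the largest smaller fold, the neighbours of the threshold, up to 4 further genes of a list holding a member, and those said to be singled out. More than 4 copper genes are named, and genes of the jasmonate and abscisic acid lists are named although these hold no member. They were chosen after their values were seen. MADS1 and MADS16 are named as the floral markers that reached a mean of 1 FPKM. Promoter sequences were not used here. Alternatives were pseudocounts of 0.1 and 5, a filter at a mean of 5 FPKM, no filter, upper-quartile scaling, quantile normalization, a ratio of 2, voom on recovered reads, a replicate block and leaving out each library; their use on single named genes was added after seeing the data.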

Additional observations from a re-analysis of the deposited data

How the results depend on the processing

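The number of members depended on the pseudocount. With 0.1 there were 74 higher and 67 lower in OE, with 5 there were 29 and 6, and with both ratios at least 2 there were 10 and 2. Requiring a mean of 5 FPKM, no filter, upper-quartile scaling and quantile normalization kept both counts within 1.5 times. Leaving out 1 library gave 55 to 127 members higher in OE and 28 to 73 lower in OE. The highest counts came without OE replicate 1 (127 and 73), and without WT replicate 1 there were 92 and 54. Without OE replicate 3 the second count was 58. Dropping a library also loosens the demand on order. Calls in OE against WT numbered 46, 29 when a mean of 5 FPKM was required, and 27 (without WT replicate 1) to 71 (without OE replicate 1) when a library was left out. In the mutant against WT that range was 6590 to 8556 about 8333, and for the mutant set against OE 7075 to 8296, with 8622 from all libraries. Members called in both comparisons with WT numbered 3, 5 with a pseudocount of 5, and 2 to 7 without 1 library (7 without OE replicate 1). With the replicate number as a block, 38 genes were called in OE, 8318 between mutant and WT and 8543 between mutant and OE, and 2 members in both comparisons with WT. Same-numbered libraries correlated at -0.068 to 0.211 in their deviations from the group means, and differently numbered ones at -0.232 to 0.220. These values cannot decide whether equal numbers mark a pairing, because deviations of 3 libraries around their mean are tied to each other. With the replicate block SPL9 and COPT5.1 passed in the mutant (limma adjusted p = 0.013 and 0.042). Causes of these differences were not tested. Low members moved most with the pseudocount: the log2 difference of HKT2;4 between OE and WT, -0.87, was -1.44 with 0.1 and -0.32 with 5. Low genes are also limited by depth. The mutant values rested on 10 reads or fewer in COPT5.2, Os01g0123900, Os06g0534900, Os04g0330301, Os05g0142600 and some members not named here.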
